A study of Mus musculus with 24 samples.

Results

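The loss of tRNA-Phe-1-1 was compared between brain and liver: for each gene, the difference between tRNA-Phe-1-1-/- and wild-type (WT) mice in the brain was set against the same difference in the liver. This took 12 of the 24 samples of the series, 3 replicates (A, B and C) of each genotype in each tissue. All samples were total tissue RNA of C57BL/6N male mice aged 10 weeks. The knockout mice were homozygous for a deletion in tRNA-Phe-GAA-1-1, made by injecting Cas9 and a guide RNA into embryos and bred to homozygosity, so the deletion was not limited to a tissue or cell type. WT mice were age-matched littermates. The study describes total brain and liver RNA, and the sources used here do not say from which brain region it came. A gene entered the comparison when its mean over the 6 samples of each tissue was at least 10 normalised reads, which held for 14462 of the 55469 genes in the tables. Genes below this mean in a tissue, such as 6 of 10 oligodendrocyte markers, were outside it, while 9 of 10 hepatocyte markers passed through their traces in the brain. The labels do not say whether a letter marks the same animal in brain and liver, and the p-values measure the spread between these samples.

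Transfer RNA for phenylalanine (tRNA-Phe) carries this amino acid to the ribosome, where its GAA anticodon reads the codons UUC and UUU. The mouse nuclear genome holds a small family of such genes, several of them with the same mature sequence, and the copies differ in how strongly RNA polymerase III transcribes them. Cells that make misfolded or incomplete proteins are known to induce chaperones of the cytosol and the endoplasmic reticulum (ER), and the liver, which secretes most plasma proteins, depends strongly on the latter. The guide sequence of the deletion is given here because it does not single out one member of the family. Its target on the minus strand of chromosome 5, in tRNA-Phe-1-1, is shown with the 3 bases recognised by Cas9 in capitals.
tRNA-Phe-1-1: gcgttagactgaagatctaaAGG
The same 23 bases, with 0 mismatches, occur in all 7 tRNA-Phe genes of the study's list, on chromosomes 5, 10, 13, 14 and 19. The tables hold 0 nuclear tRNA genes, so the deleted gene itself could not be followed and the genotype labels were not checked by it.

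The 12 libraries held between 30365760 and 45204856 recovered reads. The median standard deviation of a gene among replicates was 0.13 on the log2 scale in both brain groups, 0.17 in WT liver and 0.20 in tRNA-Phe-1-1-/- liver. Neuronal Snap25 was at 50339 or more normalised reads in every brain library and at 2 or fewer in every liver library. Albumin was at 1308110 or more in the liver and between 5.2 and 851 in the brain, so liver transcripts were traces in the brain libraries, highest in tRNA-Phe-1-1-/- replicate A. Xist was at 16.9 or lower and Ddx3y at 2077 or higher in all 12 libraries, the pattern of male mice. Levels were normalised by the authors within each tissue, so that only differences within a tissue, and the difference between these, were compared.

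The tissue difference, the brain effect minus the liver effect on the log2(normalised reads + 1) scale, passed the test for 882 genes, or 6.1% of those tested (limma, Benjamini-Hochberg adjusted p under 0.05). The brain effect was the higher for 455 of them (3.15%) and the lower for 427 (2.95%). The effect of the deletion itself was called for 3051 genes in the liver (21.1%), 1655 higher (11.4%) and 1396 lower (9.65%), and for 159 genes in the brain (1.1%), 80 higher (0.553%) and 79 lower (0.546%). This fit used 1 variance per gene for both tissues. With separate variances for the 2 tissues, 1986 genes were called in the liver, 566 in the brain and 898 for the tissue difference. Of the 882 genes, 762 had a called effect in the liver alone, 46 in the brain alone and 8 in both, and 66 had one in neither tissue. Among the 762, the median absolute effect was 0.89 in the liver and 0.14 in the brain. Among the 46 it was 0.14 in the liver and 0.88 in the brain. Both sets were chosen by their calls, so the larger effect in the called tissue follows from the choice. Over all genes tested, the median absolute effect was 0.25 in the liver and 0.15 in the brain. A liver effect without a brain call was not by itself a tissue difference: of 2985 such genes, 762 had a called difference. The median effect over all genes tested was 0.006 in the brain and 0.005 in the liver.

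**Figure D1:**
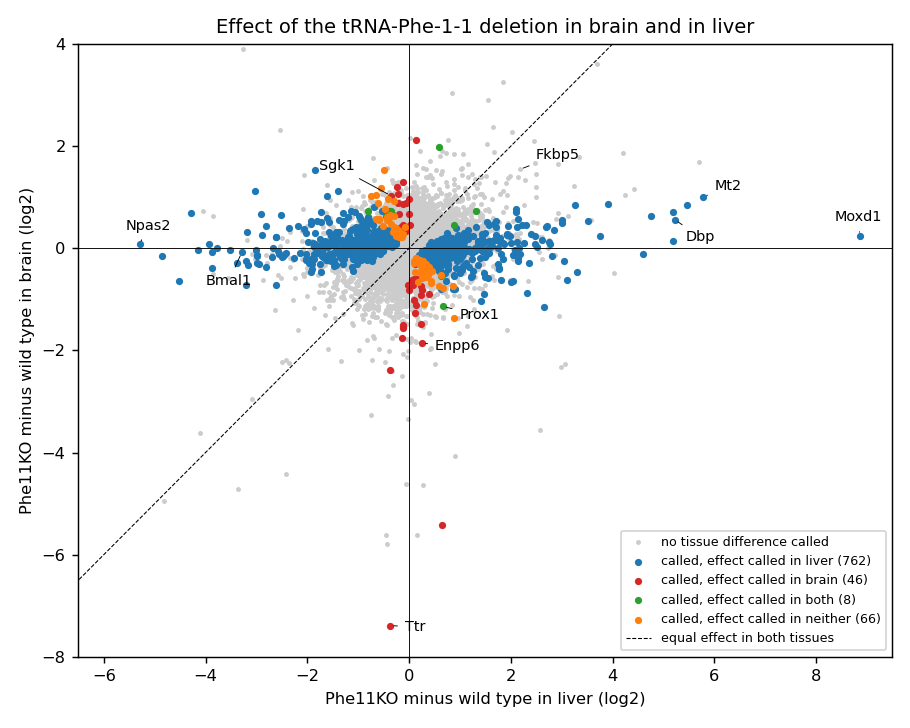
Each point is 1 of 14462 genes, at its log2 difference between tRNA-Phe-1-1-/- and WT in the liver (x axis) and in the brain (y axis). Genes with a called tissue difference are coloured by where their effect was called. The blue points, 762 genes called in the liver alone, lie along the horizontal axis, which follows from how they were chosen.

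The number of called tissue differences depended on single libraries. It was 458 without WT brain replicate C, 501 and 506 without tRNA-Phe-1-1-/- brain replicate B or C, 513 without WT liver replicate C, 568 without tRNA-Phe-1-1-/- liver replicate A and 1087 without tRNA-Phe-1-1-/- liver replicate B. The brain count of 159 fell to 25 and 60 without tRNA-Phe-1-1-/- brain replicate B or C, to 28 and 92 without WT brain replicate C or A, and to 103 and 98 without WT liver replicate C or tRNA-Phe-1-1-/- liver replicate A. The liver count was 1924 without WT replicate C and 2028 without tRNA-Phe-1-1-/- replicate A.

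Lists of genes with a shared function differed in whether both tissues took part. The clock genes, the metal response and the genes of lipid synthesis moved in the liver with brain medians within 0.26 of 0, while ER folding factors, heat shock proteins and glucocorticoid response genes had positive medians in both tissues. Ribosomal proteins had medians near 0 in both. The counts of each list are to be read beside the shares of all tested genes. These were 11.4% higher and 9.65% lower in the liver, and 0.553% higher and 0.546% lower in the brain. The brain effect was called higher for 3.15% and lower for 2.95%.

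**Figure D2:**
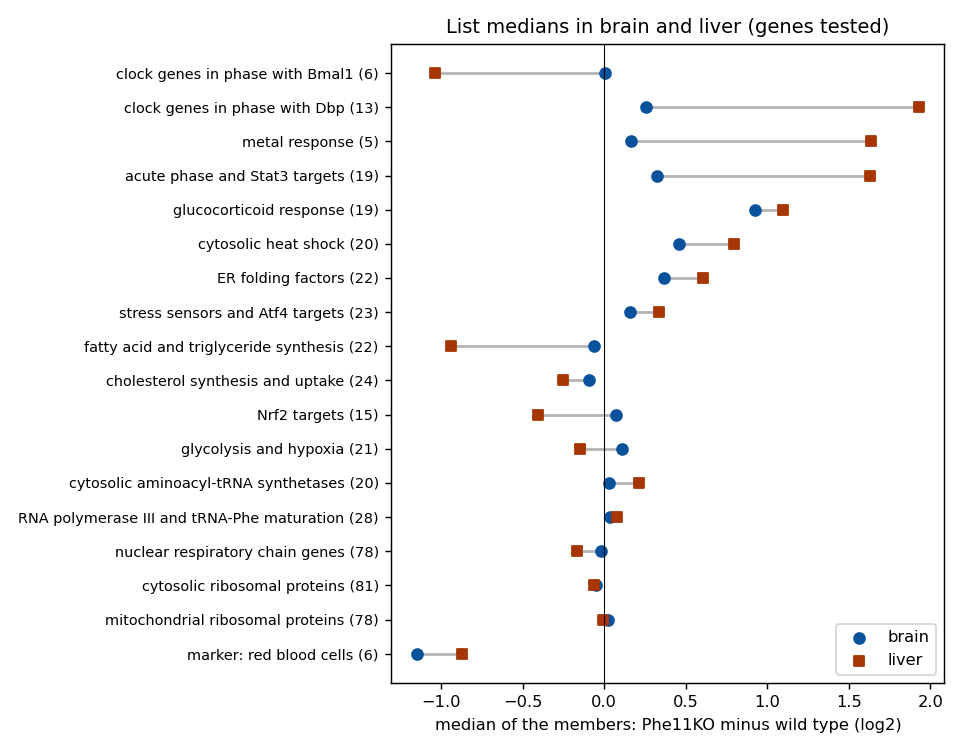
Each row is 1 gene list, with the number of its genes tested in brackets, and the x axis gives the median log2 difference between tRNA-Phe-1-1-/- and WT over these genes in brain (circles) and liver (squares). The pairs of points are farthest apart for the Dbp-phase clock, metal and acute phase lists and nearly coincide for ribosomal proteins.

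The core clock genes changed in the liver, with no call in the brain. In the clock, Bmal1 pairs with Clock or Npas2 to drive genes such as Dbp, the Per and Nr1d genes and Ciart through E-box elements, and their products in turn hold back Bmal1, so that the 2 sets peak at opposite times of day. Of 6 genes in phase with Bmal1, 5 were lower in tRNA-Phe-1-1-/- liver and 4 had a called tissue difference with the brain effect higher (background 3.15%). Their median liver effect was -1.04 and their median brain effect 0.01. Of 13 genes in phase with Dbp, 8 were higher in tRNA-Phe-1-1-/- liver and 7 had a called difference with the brain effect lower (background 2.95%). Their median was 1.93 in the liver and 0.26 in the brain. Neither list had a gene called in the brain. There, Dbp, Ciart, Nr1d2, Per2, Per3, Cry2, Bhlhe40 and Bhlhe41 were higher in all 3 tRNA-Phe-1-1-/- samples than in all 3 WT samples. The share of all tested genes that were apart in this way was not counted, so this is not read as a clock result. With any 1 library left out, 4 or 5 genes of the first list and 5 to 9 of the second had a called difference. The sources used here do not give the hour of tissue collection for each animal.

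Npas2 (ENSMUSG00000026077.15, chr1:39193702-39363240 in GRCm38.p6) was measured at 321, 257 and 414 in WT and 3.8, 18.5 and 5.1 in tRNA-Phe-1-1-/- liver. In the brain it was at 491, 765 and 781 in WT and 766, 824 and 545 in tRNA-Phe-1-1-/-. The liver groups did not overlap and the brain groups did, and the tissue difference was 5.37 (SE 0.62, adjusted p = 0.00097), the lowest p of this list. Bmal1 was at 1479, 1591 and 1889 in WT and 98.8, 466 and 101 in tRNA-Phe-1-1-/- liver, a difference of -3.29 (adjusted p = 0.00071), and at 1463, 1767 and 1423 in WT and 1574, 1539 and 1279 in tRNA-Phe-1-1-/- brain. Its tissue difference was 3.21 (SE 0.64, adjusted p = 0.016). Cry1, a repressor of the same complex, fell by 1.08 on the log2 scale in the liver, and Nfil3, a repressor of D-box genes, by 0.99, with brain effects of 0.14 and 0.13. Clock fell by 0.60 in the liver without a called tissue difference, which was 0.53 (SE 0.19, adjusted p = 0.13).

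Dbp (ENSMUSG00000059824.12, chr7:45705100-45710203), a transcription factor that binds D-boxes, moved the opposite way. Its liver values were 67.4, 28.7 and 67.5 in WT and 2776, 853 and 3069 in tRNA-Phe-1-1-/-, and its brain values 1602, 1262 and 1436 in WT and 1909, 2015 and 2407 in tRNA-Phe-1-1-/-. The groups did not overlap in either tissue, tRNA-Phe-1-1-/- liver replicate B was the lowest of its group, and the brain effect was 0.56 (adjusted p = 0.65) against 5.23 in the liver. The tissue difference was -4.67 (SE 0.62, adjusted p = 0.0021). Ciart (ENSMUSG00000038550.10, chr3:95878500-95882257), which represses the Clock and Bmal1 complex, was at 9.8, 3 and 6.5 in WT and 508, 105 and 504 in tRNA-Phe-1-1-/- liver and at 297, 188 and 269.8 in WT and 404, 436 and 496 in tRNA-Phe-1-1-/- brain. Here, too, both pairs of groups were apart and tRNA-Phe-1-1-/- liver replicate B was the lowest of its group. Ciart reached the minimum mean in the liver only through the tRNA-Phe-1-1-/- samples. Its difference was -4.62 (SE 0.77, adjusted p = 0.007). Per1 (ENSMUSG00000020893.17, chr11:69095108-69109965), a repressor that also answers to glucocorticoids, was at 85, 31.6 and 119 in WT and 739.6, 1047 and 1079.6 in tRNA-Phe-1-1-/- liver, without a low replicate B, and at 929.8, 655 and 1459 in WT and 1210, 953 and 1259 in tRNA-Phe-1-1-/- brain. Its tissue difference was -3.52 (SE 0.59, adjusted p = 0.0072). Usp2, a deubiquitinase with a daily rhythm, Nr1d2, Per3 and Tef had called differences of -4.70, -1.44, -2.28 and -1.68. The call of Tef was lost without WT brain replicate A or C, tRNA-Phe-1-1-/- brain replicate B, WT liver replicate B or tRNA-Phe-1-1-/- liver replicate A, and that of Per3 without WT brain replicate C, tRNA-Phe-1-1-/- brain replicate B or C or tRNA-Phe-1-1-/- liver replicate A.

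Per2 rose by 2.50 in the liver (adjusted p = 0.00058), and its values in the brain were 582, 678 and 931 in WT and 1434, 1414 and 1460 in tRNA-Phe-1-1-/-, so the brain groups did not overlap either. Its brain effect of 1.00 (adjusted p = 0.19) and its tissue difference of -1.49 (SE 0.47, adjusted p = 0.09) did not pass the test. Nr1d1, Cry2, Hlf, Bhlhe40 and Bhlhe41 had neither a called effect nor a called difference, with differences from -1.26 to 0.01.

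**Figure D3:**
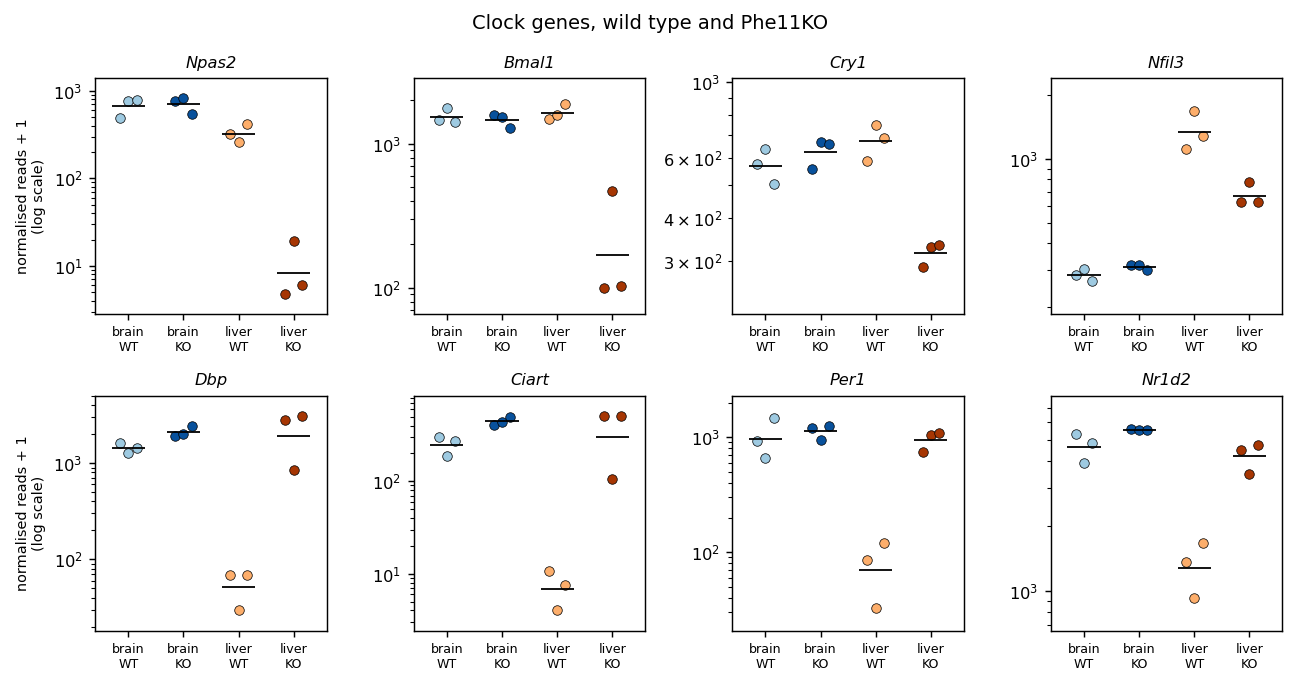
Normalised reads + 1 on a log scale for 8 clock genes in 12 samples, 3 for each genotype and tissue, with the geometric mean as a bar. The upper row (in phase with Bmal1) falls and the lower row (in phase with Dbp) rises in the tRNA-Phe-1-1-/- liver, while the brain groups lie closer together, although those of Dbp, Ciart and Nr1d2 do not overlap.

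Promoters of Ciart and Per1 are shown because an E-box, the letters CACGTG, is the element through which the Bmal1 complex acts. Each runs from 250 bases before to 50 after the gene start (RefSeq, GRCm38.p6), with E-boxes in capitals. The Ciart window is chr3:95882179-95882478 on the minus strand and the Per1 window chr11:69098699-69098998 on the plus strand.
Ciart: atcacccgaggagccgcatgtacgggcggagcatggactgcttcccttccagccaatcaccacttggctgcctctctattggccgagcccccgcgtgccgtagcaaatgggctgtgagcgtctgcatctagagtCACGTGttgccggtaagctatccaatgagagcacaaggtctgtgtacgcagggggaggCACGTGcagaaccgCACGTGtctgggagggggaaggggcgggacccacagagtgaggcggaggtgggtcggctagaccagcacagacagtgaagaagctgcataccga
Per1: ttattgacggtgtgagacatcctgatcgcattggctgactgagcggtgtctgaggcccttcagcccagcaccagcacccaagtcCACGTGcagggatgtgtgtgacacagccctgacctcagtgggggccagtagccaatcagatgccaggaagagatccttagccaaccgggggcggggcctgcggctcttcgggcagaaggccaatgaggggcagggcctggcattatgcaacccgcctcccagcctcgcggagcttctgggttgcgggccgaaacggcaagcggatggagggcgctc
Of 11 promoters found for the Dbp-phase list, 4 held an E-box on either strand (Tef, Per1, Ciart and Bhlhe41), or 36.4%, against 7.24% of 27025 promoters of this length. E-boxes were in 10.7% of 338 promoters of genes with a higher brain effect, 10.9% of 330 with a lower one and 10.1% of 10084 promoters of tested genes. Where a gene had several windows the first listed was taken, and a match is only a match of letters.

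Metal and acute phase response genes rose in the liver. Metallothioneins bind zinc and copper and are induced by metals, glucocorticoids and inflammation. Of 5 metal response genes, 3 were higher in the liver (background 11.4%) and had a called difference with the brain effect lower (background 2.95%), with medians of 1.63 in the liver and 0.16 in the brain. The Mt1 and Mt2 genes encode metallothioneins made in both tissues. Mt2 was at 26.4, 22.7 and 46.7 in WT and 1147, 8695 and 521 in tRNA-Phe-1-1-/- liver and at 522, 518 and 553 in WT and 960.2, 1299 and 968 in tRNA-Phe-1-1-/- brain. Both tissues had higher values in every tRNA-Phe-1-1-/- sample, and tRNA-Phe-1-1-/- liver replicate B was the highest of all. The brain effect of 1.00 was not called (adjusted p = 0.62) and the difference was -4.78 (SE 1.06, adjusted p = 0.024). Mt1 was also highest in tRNA-Phe-1-1-/- liver replicate B, at 81.1, 228 and 415 in WT and 6662, 22706 and 2488 in tRNA-Phe-1-1-/-, and a difference of -4.47 (SE 0.98, adjusted p = 0.022). The metal count was 1 without WT brain replicate A or C or tRNA-Phe-1-1-/- brain replicate C: the call of Mt1 was lost without each of these 3, and that of Mt2 without any 1 WT brain library, tRNA-Phe-1-1-/- brain replicate B or C or WT liver replicate B. Slc39a14, the zinc and iron importer Zip14, was at 6896, 5057 and 5576 in WT and 17362, 19024 and 17589 in tRNA-Phe-1-1-/- liver and its difference of -1.50 (SE 0.21, adjusted p = 0.0025) held without any 1 library.

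Of 19 acute phase and Stat3 target genes, which the liver induces on cytokine signals, 12 were higher in the liver (background 11.4%) and 4 had a called difference, all with the brain effect lower (background 2.95%). The medians were 1.63 in the liver and 0.32 in the brain. The list holds the fibrinogen gene Fgg. Another fibrinogen gene, the hepatocyte marker Fgb, was at 65, 25.4 and 7.9 in WT and 143, 1 and 9 in tRNA-Phe-1-1-/- brain. The part of such liver traces in the brain median of the list was not tested. The 1 gene called in the brain was lost without WT brain replicate A or B, tRNA-Phe-1-1-/- brain replicate A or B, any 1 WT liver library or tRNA-Phe-1-1-/- liver replicate A. Steap4, a metalloreductase, was at 3148, 2559 and 2808 in WT and 26200.1, 35321 and 13792 in tRNA-Phe-1-1-/- liver and at 34.2, 24.3 and 28.2 in WT and 26.4, 34.3 and 15 in tRNA-Phe-1-1-/- brain, with a difference of -3.30 (SE 0.47, adjusted p = 0.003). Socs3, the feedback inhibitor of Stat3 signals, was at 169, 121 and 122 in WT and 787, 984 and 604 in tRNA-Phe-1-1-/- liver, where the groups did not overlap, and differed by -2.49 (SE 0.37, adjusted p = 0.0034). Summed markers of neutrophils were at 61 to 117 in WT and 222 to 519 in tRNA-Phe-1-1-/- livers, and at 171 to 517 and 210 to 461 in the brain. Of the 4 tested markers, 2 were called higher in the liver (background 11.4%), and 1 without WT liver replicate A or tRNA-Phe-1-1-/- liver replicate A or B. The liver values of Retnlg, Mmp9, Ngp, Camp and Ltf overlapped between the genotypes. Each of the 10 markers was above 0 in at least 1 liver sample. The part of these cells in the acute phase values was not tested, and in bulk tissue more cells of a type cannot be told apart from more RNA per cell. Of 20 interferon response genes, 5 were higher in the liver (background 11.4%). That count was 3 without WT brain replicate C or tRNA-Phe-1-1-/- brain or liver replicate B, 2 without WT liver replicate B, 1 without WT liver replicate C or tRNA-Phe-1-1-/- liver replicate A and 8 without tRNA-Phe-1-1-/- liver replicate C. H2-D1 had a called difference of -0.46, lost without any 1 library except tRNA-Phe-1-1-/- liver replicate C.

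Glucocorticoid response genes are targets of the glucocorticoid receptor, which adrenal steroids activate. Of 19, 6 were higher in the brain (background 0.553%) and 12 in the liver (background 11.4%), with 1 lower in the liver. The medians were 0.92 and 1.09, and 3 genes had a called difference in each direction. Fkbp5 (ENSMUSG00000024222.17, chr17:28398753-28486149), a co-chaperone that dampens the glucocorticoid receptor, was at 642, 586 and 658 in WT and 1462, 2239 and 1879.9 in tRNA-Phe-1-1-/- brain and at 797, 652 and 681 in WT and 3040.5, 3238 and 3338 in tRNA-Phe-1-1-/- liver. Neither tissue had overlapping groups, with effects of 1.54 (adjusted p = 0.00085) in the brain and 2.18 (adjusted p = 5.6e-06) in the liver. The tissue difference of -0.63 had a 95% confidence interval of -1.06 to -0.21 and an adjusted p of 0.081. Sgk1, a kinase that regulates ion channels, rose in the brain alone, at 1686, 1824 and 1612 in WT and 2476, 4433 and 3858 in tRNA-Phe-1-1-/- brain and 1090.4, 876 and 919.7 in WT and 705, 922 and 639.5 in tRNA-Phe-1-1-/- liver, with a difference of 1.39 (SE 0.28, adjusted p = 0.016). Pdk4, which restrains glucose oxidation, fell in the liver, from 816, 699 and 746 to 69.6, 112 and 116, and differed by 2.64 (SE 0.35, adjusted p = 0.0021). Fam107a was at 0, 1 and 0 in WT and 43.3, 39.7 and 20.5 in tRNA-Phe-1-1-/- liver, near the limit of detection in WT. It reached the minimum mean in the liver only through the tRNA-Phe-1-1-/- samples. Its difference of -4.12 depends on the pseudocount and was -6.58 with 0.1 and -2.21 with 5. The 6 calls in the brain were 3 without any 1 of WT brain replicate A or B or tRNA-Phe-1-1-/- brain replicate B or C. The 3 calls with a lower brain effect were 1 without WT brain replicate B or C, tRNA-Phe-1-1-/- brain replicate C, WT liver replicate B or tRNA-Phe-1-1-/- liver replicate A, and 5 without WT liver replicate A.

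Chaperones of the ER were called higher in the liver for 15 of 22 genes and in the brain for 7, and for most of them no tissue difference passed the test. These proteins fold and join by disulfide bonds the proteins that enter the secretory pathway. The backgrounds were 11.4% in the liver and 0.553% in the brain, and none was called lower in either tissue, with medians of 0.36 and 0.61. The median tissue difference was -0.13, and 3 genes, Creld2, Dnajb11 and Dnajc3, had a called one. The brain count of 7 fell to 0 without WT brain replicate C or tRNA-Phe-1-1-/- brain replicate B and to 2 without tRNA-Phe-1-1-/- brain replicate C. The 3 called differences fell to 0 without any 1 of WT brain replicate A or B, tRNA-Phe-1-1-/- brain replicate B, WT liver replicate B or C or tRNA-Phe-1-1-/- liver replicate A, and to 1 without WT brain replicate C or tRNA-Phe-1-1-/- brain replicate A.

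Hspa5 (ENSMUSG00000026864.13, chr2:34772090-34776529), the main Hsp70 chaperone of the ER, was at 9448, 9147 and 7782 in WT and 14754, 15118 and 17260.1 in tRNA-Phe-1-1-/- brain and at 32075, 27069 and 29797 in WT and 58512, 40623 and 51809.6 in tRNA-Phe-1-1-/- liver. The groups did not overlap in either tissue. It rose by 0.84 in the brain (adjusted p = 0.015) and 0.75 in the liver (adjusted p = 0.0025), and the difference of 0.09 had an interval of -0.32 to 0.49. Sdf2l1, which works with Hspa5, rose by 1.06 and 1.38, with an interval of -0.84 to 0.20 for the difference. Pdia6, a disulfide isomerase, rose by 0.66 and 0.73 (interval -0.36 to 0.23), Calr, a lectin chaperone, by 0.57 and 0.41 (interval -0.08 to 0.41), and Pdia4 by 0.67 and 0.46 (interval -0.11 to 0.53). The groups of these 5 genes were apart in both tissues, and each interval includes 0. Creld2 (ENSMUSG00000023272.4, chr15:88819646-88826681), an ER-stress-inducible disulfide isomerase, was at 436, 373 and 324 in WT and 613, 555 and 682 in tRNA-Phe-1-1-/- brain and at 1722, 956 and 1213 in WT and 7263, 4347 and 5046 in tRNA-Phe-1-1-/- liver. All groups were apart, and the liver effect of 2.11 was the larger, with a tissue difference of -1.39 (SE 0.32, adjusted p = 0.027). Dnajb11 and Dnajc3, co-chaperones of Hspa5, differed by -0.53 and -0.44. Hyou1 rose by 1.07 in the liver and its difference of -0.72 (SE 0.19, adjusted p = 0.052) just missed the threshold.

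The promoters of Hspa5 (chr2:34771840-34772139, plus strand) and Creld2 (chr15:88819396-88819695, plus strand), of the same length and source as above, are shown with the ER stress element in capitals. This element, bound by NF-Y together with Atf6, has the letters CCAAT and CCACG with 9 bases between them, and stands on the other strand in Creld2.
Hspa5: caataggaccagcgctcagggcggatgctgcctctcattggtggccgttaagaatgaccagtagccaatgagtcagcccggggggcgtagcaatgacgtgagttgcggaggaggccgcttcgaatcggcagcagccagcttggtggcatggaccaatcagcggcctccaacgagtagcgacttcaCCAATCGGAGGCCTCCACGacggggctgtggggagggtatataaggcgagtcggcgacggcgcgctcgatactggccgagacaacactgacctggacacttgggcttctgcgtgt
Creld2: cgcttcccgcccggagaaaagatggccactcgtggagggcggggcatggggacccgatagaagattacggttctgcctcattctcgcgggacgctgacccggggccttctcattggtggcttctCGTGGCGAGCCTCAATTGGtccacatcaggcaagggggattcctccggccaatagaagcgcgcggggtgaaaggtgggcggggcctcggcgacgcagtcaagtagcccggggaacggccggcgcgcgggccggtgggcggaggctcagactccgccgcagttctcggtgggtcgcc
It was found in 8 of 19 promoters of the list (42.1%), those of Hspa5, Hsp90b1, Calr, Canx, Pdia6, Dnajc3, Creld2 and Ero1b, against 0.130% of all promoters of this length. Among these 8 genes, Hspa5, Calr, Pdia6 and Dnajc3 were called in both tissues, Hsp90b1, Canx, Creld2 and Ero1b in the liver alone.

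Cytosolic heat shock proteins fold proteins outside the ER, and their list also holds the mitochondrial chaperonin genes Hspd1 and Hspe1. Of 20, 5 were higher in the brain (background 0.553%) and 17 in the liver (background 11.4%), with medians of 0.46 and 0.80. The difference was negative for 17 of 20 and called for 3. Hsp90aa1, the inducible Hsp90, was at 39000.2, 33578 and 34773 in WT and 41877, 45904 and 44212 in tRNA-Phe-1-1-/- brain and at 9442, 7446 and 7778 in WT and 19669, 16334 and 16119 in tRNA-Phe-1-1-/- liver. Both pairs of groups were apart, but only the liver effect of 1.08 was called, and the difference was -0.78 (SE 0.15, adjusted p = 0.013). Hsph1, a nucleotide exchange factor of Hsp70, was at 1763, 1246 and 1176 in WT and 4532, 3541 and 3882 in tRNA-Phe-1-1-/- liver and differed by -1.02 (SE 0.20, adjusted p = 0.016). Stip1, which hands clients from Hsp70 to Hsp90, rose in both, by 0.57 and 0.60, with an interval of -0.28 to 0.22 for the difference. The brain count of 5 was 0 without WT brain replicate C or tRNA-Phe-1-1-/- brain replicate B, 1 without tRNA-Phe-1-1-/- brain replicate C, 2 without WT brain replicate B or tRNA-Phe-1-1-/- liver replicate A, and 3 without WT brain replicate A or WT liver replicate B or C. The 3 called differences were 2 to 4 in these fits. Of 23 stress sensors and Atf4 targets, 5 were higher and 2 lower in the liver (background 11.4% and 9.65%), a total of 4 without WT liver replicate B or tRNA-Phe-1-1-/- liver replicate A, and 1 was higher in the brain, lost without any 1 library except WT or tRNA-Phe-1-1-/- liver replicate B. The brain effect was called higher for 3 of them and lower for 1 (background 3.15% and 2.95%). The 3 were 0 without WT or tRNA-Phe-1-1-/- brain replicate C, WT liver replicate B or tRNA-Phe-1-1-/- liver replicate A, and 1 without any 1 other library except WT liver replicate A or tRNA-Phe-1-1-/- liver replicate B. The called genes included the transcription factor gene Cebpb, at 764, 661 and 484 in WT and 2667, 2678 and 2671 in tRNA-Phe-1-1-/- liver with a difference of -1.33 (SE 0.26, adjusted p = 0.015). Cth, an enzyme of cysteine synthesis, differed by 1.60 (SE 0.35, adjusted p = 0.023), and its call was lost without WT brain replicate C, tRNA-Phe-1-1-/- brain replicate C, WT liver replicate B or C or tRNA-Phe-1-1-/- liver replicate A.

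Genes of lipid synthesis were called in the liver, most of them lower, and not in the brain. Of 22 genes of fatty acid and triglyceride synthesis, 12 were lower (background 9.65%) and 1 higher in the liver, none was called in the brain, and 7 had a called difference, 6 of them with the brain effect higher (background 3.15%). The other one, Lpin1, a phosphatidate phosphatase, was lost without WT brain replicate C. The medians were -0.94 in the liver and -0.06 in the brain. Acly (ENSMUSG00000020917.17, chr11:100476352-100528000), which makes cytosolic acetyl-CoA, was at 44518, 36709 and 45800.3 in WT and 10062, 11852 and 16281 in tRNA-Phe-1-1-/- liver and at 7016, 7076 and 5819.5 in WT and 7015, 7144 and 8507 in tRNA-Phe-1-1-/- brain. The liver groups were far apart and the brain groups overlapped, with a difference of 1.94 (SE 0.23, adjusted p = 0.0011). Elovl5, an elongase of polyunsaturated fatty acids, differed by 1.69 (SE 0.19, adjusted p = 0.00074). Of 24 genes of cholesterol synthesis and uptake, 9 were lower and 1 higher in the liver and 5 had a called difference, all with the brain effect higher, against the same backgrounds and around medians of -0.25 and -0.09. Sc5d, a late enzyme of this pathway, was at 28863, 29739 and 33262 in WT and 12281, 11154 and 13690.5 in tRNA-Phe-1-1-/- liver and at 2157, 2262 and 2318 in WT and 2236, 2321 and 2243 in tRNA-Phe-1-1-/- brain and differed by 1.32 (SE 0.11, adjusted p = 0.0003). The early enzyme Pmvk differed by 1.53 (SE 0.15, adjusted p = 0.00043). The count of 5 was 2 without WT brain replicate A or C or tRNA-Phe-1-1-/- brain replicate C, and 3 without tRNA-Phe-1-1-/- brain replicate B, WT liver replicate C or tRNA-Phe-1-1-/- liver replicate A.

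The other metabolic lists also had their calls in the liver. Of 15 Nrf2 targets, which make glutathione and handle oxidants, 7 were lower (background 9.65%) and 1 higher in the liver (a total of 5 without WT liver replicate B or C), none was called in the brain and 3 had a called difference with the brain effect higher (background 3.15%). Gclc, the catalytic subunit of the enzyme that limits glutathione synthesis, was at 13396, 17632 and 14847 in WT and 4000.3, 4904 and 3735 in tRNA-Phe-1-1-/- liver and at 1641, 1528 and 1691 in WT and 1503, 1649 and 1802 in tRNA-Phe-1-1-/- brain, a difference of 1.89 (SE 0.17, adjusted p = 0.00031), and its partner Gclm differed by 0.46. The Nrf2 count was 1 without WT brain replicate B, tRNA-Phe-1-1-/- brain replicate B or C or WT liver replicate B, 5 without WT liver replicate A and 7 without tRNA-Phe-1-1-/- liver replicate B. Of 21 glycolysis and hypoxia genes, 7 were lower (background 9.65%) and 2 higher in the liver (a total of 5 without tRNA-Phe-1-1-/- liver replicate A) and 3 had a called difference with the brain effect higher (background 3.15%), among them Aldoc, an aldolase, at 0.89 and Vegfa, the endothelial growth factor, at 0.51. That count was 1 without WT brain replicate A or C, tRNA-Phe-1-1-/- brain replicate A or B or tRNA-Phe-1-1-/- liver replicate A, and 6 without tRNA-Phe-1-1-/- liver replicate C. Of 24 genes of fatty acid oxidation, 4 were higher and 5 lower in the liver (background 11.4% and 9.65%, a total of 5 without tRNA-Phe-1-1-/- liver replicate A). The brain effect was called higher for 2 of them and lower for 1 (background 3.15% and 2.95%). The 2 were Pdk4 and Acot2, a mitochondrial thioesterase, at 1.47. The count of lower ones ran from 0 to 3 with 1 library left out. Of 16 insulin and FoxO response genes, 2 had a called difference with the brain effect higher (background 3.15%), Ccng2, a FoxO target, at 1.46 and Sesn3, a stress-induced regulator of mTOR signalling, at 0.60, which was lost without any 1 library except WT brain replicate B, WT liver replicate A or tRNA-Phe-1-1-/- liver replicate C. Of 24 cell cycle genes, 2 had one with the brain effect lower (background 2.95%), Ccne1 (cyclin E1) at -2.39 and the stress gene Gadd45g at -2.51, which was lost without any 1 library except WT liver replicate A or tRNA-Phe-1-1-/- liver replicate A or B. The cell cycle count was 4 without WT liver replicate A. Of 14 immediate early genes none had a called difference.

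Counts of called tissue differences in lists of translation and mitochondrial genes are to be read against 6.1% of all genes. No gene had one among 81 cytosolic ribosomal proteins (medians -0.05 in the brain and -0.06 in the liver), 78 mitochondrial ribosomal proteins, 13 mitochondrially encoded genes, 37 proteasome genes and 23 genes of ER translocation and degradation. Without 1 library this was 1 mitochondrial ribosomal protein without tRNA-Phe-1-1-/- liver replicate C, 2 mitochondrially encoded genes without WT liver replicate A, 1 proteasome gene without tRNA-Phe-1-1-/- brain replicate A, WT liver replicate A or tRNA-Phe-1-1-/- liver replicate C, and 1 gene of ER translocation and degradation without WT or tRNA-Phe-1-1-/- liver replicate B. Of 78 nuclear genes of the respiratory chain none had one, but 3 did without tRNA-Phe-1-1-/- liver replicate C, 1 without tRNA-Phe-1-1-/- brain replicate A or tRNA-Phe-1-1-/- liver replicate B, 5 with DESeq2 and 3 in a fit over all 24 samples. Of these genes 19 were lower in the liver (background 9.65%) with a median of -0.17, and the difference was positive for 71 of the 78. The 19 were 12 without WT brain replicate C, 11 without tRNA-Phe-1-1-/- brain replicate B, 10, 7 and 5 without WT liver replicate A, B or C, and 5 and 8 without tRNA-Phe-1-1-/- liver replicate A or B. Of 20 cytosolic aminoacyl-tRNA synthetases, which load tRNAs with amino acids, 8 were higher (background 11.4%) and 1 lower in the liver, a total of 5 without WT or tRNA-Phe-1-1-/- liver replicate B and 4 without WT liver replicate C or tRNA-Phe-1-1-/- liver replicate A. None was called in the brain. Tars1, for threonine, was the lower one, at 8325, 7767 and 7649 in WT and 4582, 4893 and 4958 in tRNA-Phe-1-1-/- liver and 1167, 1021 and 1238 in WT and 1209, 1382 and 1249.6 in tRNA-Phe-1-1-/- brain, with a difference of 0.88 (SE 0.12, adjusted p = 0.0021). Sars1, for serine, differed by -0.47, lost without WT brain replicate A or B, any 1 tRNA-Phe-1-1-/- brain library, WT liver replicate C or tRNA-Phe-1-1-/- liver replicate A, and 3 synthetases had such a difference without tRNA-Phe-1-1-/- liver replicate C. Of 28 genes of RNA polymerase III and tRNA-Phe maturation, 4 were higher and 2 lower in the liver (a total of 3 without WT or tRNA-Phe-1-1-/- liver replicate C), near the background of 11.4% and 9.65%, and 1 had a called difference: Tyw5 (ENSMUSG00000048495.16, chr1:57388235-57406674), which hydroxylates the wybutosine base next to the anticodon of tRNA-Phe. It was at 274, 272 and 284 in WT and 147, 141 and 105 in tRNA-Phe-1-1-/- liver and at 465, 316 and 352 in WT and 359, 409 and 377 in tRNA-Phe-1-1-/- brain, overlapping in the brain only, and differed by 1.12 (SE 0.23, adjusted p = 0.019), a call lost without WT brain replicate C or tRNA-Phe-1-1-/- brain replicate B. Of 19 genes of elongation and ribosome rescue, Pelo, which helps to free stalled ribosomes, had a called difference of -0.73 (SE 0.17, adjusted p = 0.032), lost without any 1 library except WT liver replicate A or tRNA-Phe-1-1-/- liver replicate B or C.

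Phenylalanine codon use was compared because the deleted tRNA reads these codons. They made up a median of 3.58% of the codons of the 12291 protein-coding genes tested that had a coding sequence. The median was 3.69% for the 417 with a called higher brain effect and 3.76% for the 404 with a lower one. UUU supplied a median of 44.4%, 43.8% and 45.8% of these codons in the same order. These are descriptions without a test.

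Single genes led the differences. Moxd1 (ENSMUSG00000020000.7, chr10:24223517-24302783), a copper-dependent monooxygenase, was at 3.9, 0 and 0 in WT and 2509.7, 94.3 and 2056 in tRNA-Phe-1-1-/- liver and at 198, 214 and 279 in WT and 217, 296 and 304 in tRNA-Phe-1-1-/- brain. It was close to absent in WT liver and reached the minimum mean there only through the tRNA-Phe-1-1-/- samples. Liver replicate B of tRNA-Phe-1-1-/- was far below the other 2. The difference of -8.62 (adjusted p = 0.0078) was -10.92 with a pseudocount of 0.1 and -6.81 with 5. Ppp1r3c (ENSMUSG00000067279.3, chr19:36731731-36736604), which brings a phosphatase to glycogen, was at 7862, 3352 and 4962 in WT and 572, 410 and 743 in tRNA-Phe-1-1-/- liver and at 1965, 1880.2 and 1851 in WT and 2114, 2376 and 2629.5 in tRNA-Phe-1-1-/- brain. Liver values fell and the brain values were slightly higher in tRNA-Phe-1-1-/-, with groups apart in both tissues, and the tissue difference was 3.50 (SE 0.38, adjusted p = 0.00073). Chrna4, a nicotinic receptor subunit, fell in the liver from 695, 566 and 1611 to 12.2, 60.8 and 63.4 and differed by 3.88 (SE 0.78, adjusted p = 0.017). Sytl5, a Rab27 effector, and Tafa2, a small secreted protein, differed by 4.99 and 4.00 and were at 2.8, 39.7 and 14.3 and 0.9, 10.6 and 6.1 in tRNA-Phe-1-1-/- liver. Their calls were lost without WT brain replicate C, tRNA-Phe-1-1-/- brain replicate B or C or WT liver replicate B or C, and that of Tafa2 also without WT brain replicate A or B or tRNA-Phe-1-1-/- liver replicate A. Slc1a2, the glutamate transporter of astrocytes and of hepatocytes near the central vein, rose in the liver from 4038, 2721 and 2732 to 10005, 7667 and 9533 and differed by -1.56 (SE 0.26, adjusted p = 0.0068).

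Among genes that fell in the brain were 2 whose liver values overlapped between the genotypes. Enpp6 (ENSMUSG00000038173.15, chr8:46939197-47096762), a choline phosphodiesterase of newly formed oligodendrocytes, was at 349.9, 327 and 412 in WT and 79.1, 77.9 and 156 in tRNA-Phe-1-1-/- brain and at 90.9, 154 and 79.1 in WT and 113, 135 and 125 in tRNA-Phe-1-1-/- liver. The brain groups did not overlap and the liver groups did, with a difference of -2.12 (SE 0.42, adjusted p = 0.015). Tmem125 (ENSMUSG00000050854.9, chr4:118540941-118544920) was at 290, 229 and 245 in WT and 57.3, 115 and 111 in tRNA-Phe-1-1-/- brain and at 165, 225 and 205 in WT and 241, 218 and 235 in tRNA-Phe-1-1-/- liver and differed by -1.71 (SE 0.34, adjusted p = 0.016). All 10 markers of oligodendrocytes, the myelinating cells, were lower in every tRNA-Phe-1-1-/- brain than in every WT brain. The share of all genes that were apart in this way was not counted. The sum of the markers was 128512 to 153270 in WT and 48777 to 93602 in tRNA-Phe-1-1-/-. Mbp, the myelin basic protein, was at 53491, 49537 and 44757 in WT and 17998, 27208 and 31924 in tRNA-Phe-1-1-/- brain, lowest in replicate A. Only 4 of the 10 markers reached the minimum in the liver, and none of these 4 was called in the brain or for the tissue difference. The median brain effect of these 4 was -0.96. Against the same WT brains it was -0.45 in mice without tRNA-Phe-2-1 and -0.19 in mice without tRNA-Phe-3-1. The part of oligodendrocyte number in the values of Enpp6 and Tmem125 was not tested. Summed neuronal markers were at 174478 to 212878 in WT and 160539 to 198911 in tRNA-Phe-1-1-/- brain, and astrocyte markers at 107191 to 138308 and 106979 to 128956.

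Ttr (transthyretin, ENSMUSG00000061808.4, chr18:20664209-20674326), made by liver and choroid plexus, had the lowest difference of the genes called in the brain alone. It was at 5965, 486 and 12103 in WT and 84.8, 13.5 and 5 in tRNA-Phe-1-1-/- brain and at 166393, 173682 and 168390 in WT and 132077, 115104 and 147858 in tRNA-Phe-1-1-/- liver. WT brains ranged widely, all 3 tRNA-Phe-1-1-/- brains lay below them, and the tRNA-Phe-1-1-/- livers lay below the WT livers by a far smaller margin. The difference was -7.02 (SE 1.52, adjusted p = 0.022), and the call was lost without WT brain replicate A or C, tRNA-Phe-1-1-/- brain replicate B or C or WT liver replicate C, and with robust moderation or in a fit over all 24 samples. Of the other choroid plexus markers, only Folr1 was apart, at 83, 18 and 134 in WT and 3.4, 1 and 4 in tRNA-Phe-1-1-/- brain. Kcne2, at 37.6, 0 and 70 and 0, 0 and 1 in the same groups, overlapped. Clic6, at 157, 58.1 and 296 and 27.5, 282 and 408, also overlapped between the groups, as did Kl and Aqp1. The part of the amount of choroid plexus in each sample was not tested.

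Genes that rose in the brain alone included Nostrin (ENSMUSG00000034738.8, chr2:69135800-69189330), which directs the traffic of endothelial nitric oxide synthase. It was at 69.3, 56 and 71.1 in WT and 178, 170.4 and 115 in tRNA-Phe-1-1-/- brain and at 592, 674 and 719 in WT and 539, 692 and 466 in tRNA-Phe-1-1-/- liver, apart in the brain and overlapping in the liver, and differed by 1.45 (SE 0.28, adjusted p = 0.013). Endothelial markers summed to 7302 to 8033 in WT and 6695 to 7445 in tRNA-Phe-1-1-/- brain. Gm49909, a predicted gene, differed by 1.42 (SE 0.38, adjusted p = 0.05) and kept its call only without WT brain replicate B or tRNA-Phe-1-1-/- liver replicate B. Red blood cell genes were lower in both tissues: the 6 markers summed to 15411 to 28325 in WT and 7629 to 9636 in tRNA-Phe-1-1-/- brain, and to 19774 to 26049 and 11571 to 13842 in the liver. Of the 6, 5 were called lower in the brain (background 0.546%) and 4 in the liver (background 9.65%), with medians of -1.15 and -0.87. None was called for the tissue difference (background 6.1%). The brain count was 0 without tRNA-Phe-1-1-/- brain replicate B or C, 1 without WT brain replicate C, 2 without WT liver replicate C or tRNA-Phe-1-1-/- liver replicate A and 3 without tRNA-Phe-1-1-/- brain replicate A, and the liver count was 2 without tRNA-Phe-1-1-/- liver replicate A or B or WT liver replicate B or C.

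For 5 genes (0.0346% of those tested) the effect was called in both tissues in opposite directions, and for 61 (0.422%) in the same direction, 40 higher and 21 lower. The 66 genes made up 41.5% of the calls in the brain and 2.16% of those in the liver. Ociad2 (ENSMUSG00000029153.11, chr5:73322198-73338947), a mitochondrial protein with an OCIA domain, was at 1923, 1921 and 1963 in WT and 3079.9, 3222 and 2707 in tRNA-Phe-1-1-/- brain and at 1046, 997 and 1000.1 in WT and 742, 792 and 699.9 in tRNA-Phe-1-1-/- liver. It rose in the brain by 0.63 and fell in the liver by 0.45, with no overlap in either tissue and a difference of 1.08 (SE 0.11, adjusted p = 0.00053). Stk40 (ENSMUSG00000042608.15, chr4:126103942-126141029), a kinase-like protein, rose by 0.73 in the brain and fell by 0.36 in the liver, from 424, 453 and 464 to 728, 789 and 718 and from 1099, 978 and 988 to 779, 763 and 839. Its groups were also apart in both tissues. Rapgef3 (ENSMUSG00000022469.17, chr15:97744770-97768419), the cAMP sensor Epac1, went from 779, 689 and 655 to 1267, 1117 and 1120.3 in the brain and from 262, 217 and 236 to 172, 118 and 121 in the liver. The differences of Stk40 and Rapgef3 were 1.10 (SE 0.12, adjusted p = 0.00072) and 1.54 (SE 0.21, adjusted p = 0.0025).

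Cep85l (ENSMUSG00000038594.9, chr10:53273441-53379883), a centrosomal protein, was lower in the brain, at 1458, 1252 and 1232 in WT and 911, 882 and 906 in tRNA-Phe-1-1-/-, and higher in the liver, at 1929, 1516 and 1625 in WT and 2607, 2445 and 2699 in tRNA-Phe-1-1-/-. It differed by -1.16 (SE 0.14, adjusted p = 0.0011). Prox1 (ENSMUSG00000010175.13, chr1:190118035-190170827), a homeobox factor of hepatocytes, lymphatic endothelium and dentate granule neurons, was at 569, 349 and 442 in WT and 209.7, 181 and 214 in tRNA-Phe-1-1-/- brain and at 5093, 3475 and 4623 in WT and 8767, 5346 and 6975 in tRNA-Phe-1-1-/- liver. All 3 tRNA-Phe-1-1-/- brains were below and all 3 tRNA-Phe-1-1-/- livers above WT, with effects of -1.14 and 0.67 and a difference of -1.81 (SE 0.30, adjusted p = 0.0068). In a limma fit over all 24 samples the difference of Prox1 was not called (adjusted p = 0.13). Neither was its effect in the brain (adjusted p = 0.31) or liver (adjusted p = 0.36), nor the liver effect of Stk40 (adjusted p = 0.054). Of the 5 opposite genes, all kept a called difference with any 1 library left out, but the number called in both tissues ran from 2 without WT brain replicate C or tRNA-Phe-1-1-/- brain replicate B or C to 3 without tRNA-Phe-1-1-/- liver replicate C and 8 without tRNA-Phe-1-1-/- liver replicate B.

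Of the 61 genes with the same direction, 3 also had a called tissue difference. P4ha1 (ENSMUSG00000019916.14, chr10:59323197-59373304), the catalytic subunit of collagen prolyl hydroxylase, was at 1824, 1934 and 1915 in WT and 2886, 3289 and 3245 in tRNA-Phe-1-1-/- brain and at 458, 443 and 390.4 in WT and 1015, 1119 and 1086 in tRNA-Phe-1-1-/- liver. It rose in both, by 0.73 and 1.32, and more in the liver, with a difference of -0.59 (SE 0.12, adjusted p = 0.016). Mertk, a receptor for the uptake of dying cells, rose by 0.84 and 0.68, and its difference had an interval of -0.11 to 0.43. The count of 61 was 39, 38 and 12 without WT brain replicate A, B or C, 6 and 23 without tRNA-Phe-1-1-/- brain replicate B or C, and 37 and 35 without WT liver replicate C or tRNA-Phe-1-1-/- liver replicate A.

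**Figure D4:**
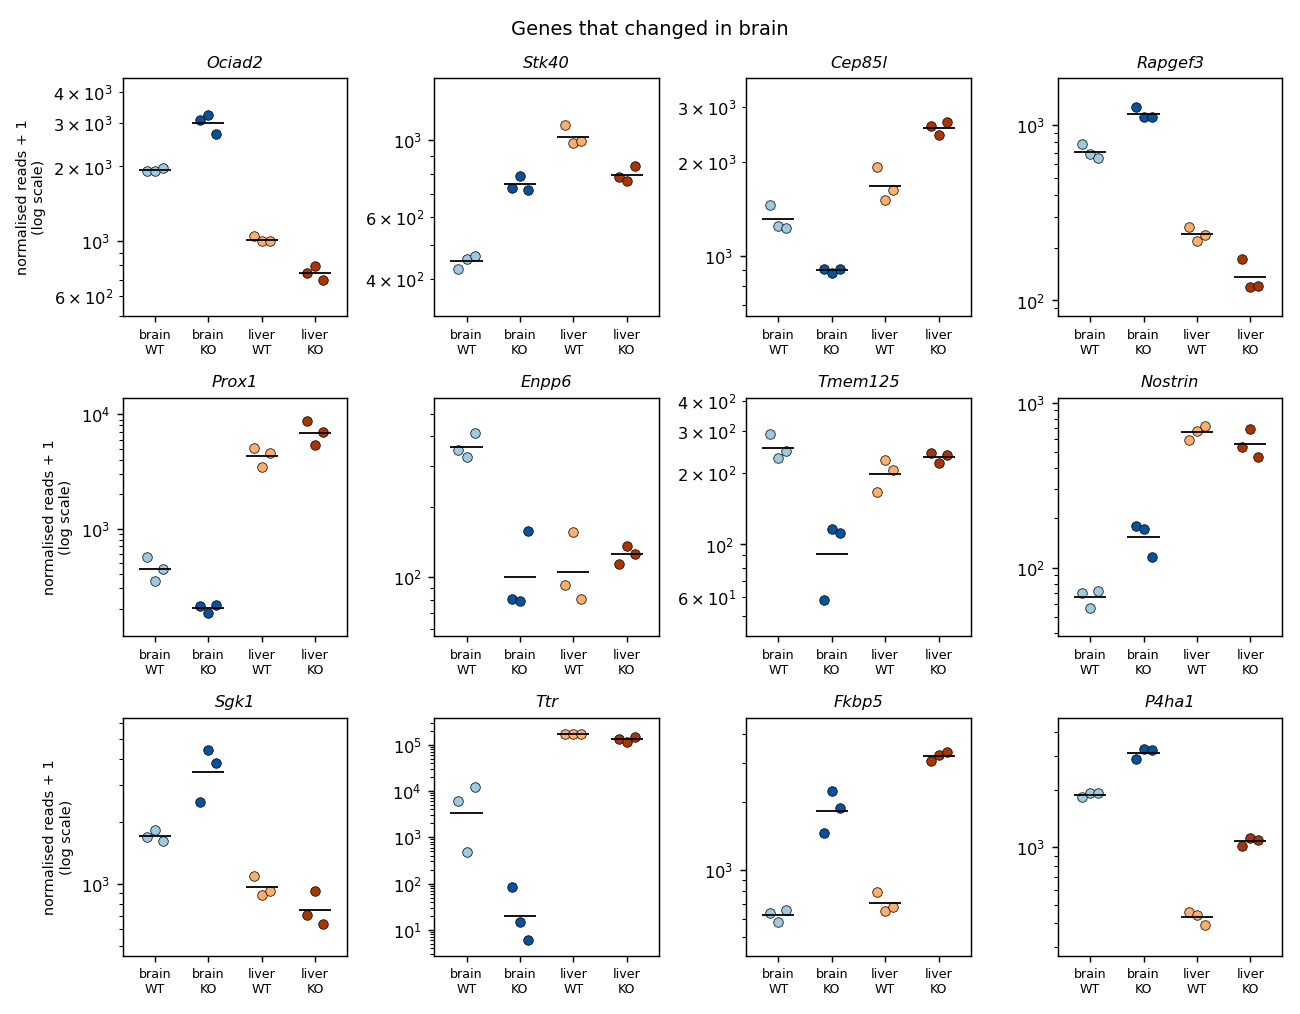
Normalised reads + 1 on a log scale for 12 genes called in the brain, 3 samples for each genotype and tissue, with the geometric mean as a bar. The first 5 genes move in opposite directions in the 2 tissues, Enpp6, Tmem125, Nostrin, Sgk1 and Ttr are called in the brain alone, and Fkbp5 and P4ha1 rise in both.

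The same difference was taken in mice without tRNA-Phe-2-1 or tRNA-Phe-3-1, with the same WT samples and genes and a fit over all 24 samples. In this fit it was called for 1005 genes (6.95%) in tRNA-Phe-1-1-/-, for 5 genes (0.0346%) in tRNA-Phe-2-1-/- and for 65 (0.449%) in tRNA-Phe-3-1-/- mice. Between the lines, with no WT sample in the contrast, tRNA-Phe-1-1-/- mice differed from those without tRNA-Phe-2-1 in the tissue difference of 848 genes (5.86%) and from those without tRNA-Phe-3-1 in that of 1054 (7.29%). With 1 library left out, the count of tRNA-Phe-2-1-/- mice was 0 without WT brain replicate A or C, tRNA-Phe-2-1-/- brain replicate B or C or replicate C of either liver group, 2 without tRNA-Phe-2-1-/- liver replicate B, 3 without WT liver replicate B and 8 without WT liver replicate A. That of tRNA-Phe-3-1-/- mice was 5 and 34 without WT liver replicate C or B, 128 without WT liver replicate A, 21, 29 and 33 without WT brain replicate A, B or C, 18 and 117 without tRNA-Phe-3-1-/- brain replicate C or B, and 233 and 34 without tRNA-Phe-3-1-/- liver replicate A or B. The counts between lines ran from 493 to 1070 and from 645 to 1225. The former was 526 and 538 without tRNA-Phe-1-1-/- brain replicate B or C, 549 without tRNA-Phe-2-1-/- brain replicate B and 493 without tRNA-Phe-2-1-/- liver replicate B, and the latter 645 without tRNA-Phe-1-1-/- brain replicate B.

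Across the lines, the lists differed in how far the other deletions shared the liver values. The median of the fatty acid and triglyceride list against WT was -0.94 in tRNA-Phe-1-1-/-, -0.75 in tRNA-Phe-2-1-/- and -0.84 in tRNA-Phe-3-1-/- liver, all 3 against the same WT livers. Set against tRNA-Phe-2-1-/- mice, tRNA-Phe-1-1-/- mice had a median tissue difference of -0.01 for this list. For Acly the tissue difference against WT was called in all 3 lines, at 1.94, 1.77 and 1.73 in this fit, and between tRNA-Phe-1-1-/- and the other 2 lines it was 0.17 (adjusted p = 0.76) and 0.22 (adjusted p = 0.67). The cholesterol list had medians of -0.25 in tRNA-Phe-1-1-/-, -0.36 in tRNA-Phe-2-1-/- and -0.32 in tRNA-Phe-3-1-/- liver. The clock genes in phase with Dbp had medians of 1.93 in tRNA-Phe-1-1-/-, -0.02 in tRNA-Phe-2-1-/- and 1.31 in tRNA-Phe-3-1-/- liver. The tissue difference of tRNA-Phe-1-1-/- mice was called against that of tRNA-Phe-2-1-/- mice for 6 of the 13 (background 5.86%). Against that of tRNA-Phe-3-1-/- mice it was called for 3 (background 7.29%). Clock genes in phase with Bmal1 had medians of -1.04 in tRNA-Phe-1-1-/-, -0.51 in tRNA-Phe-2-1-/- and -1.11 in tRNA-Phe-3-1-/- liver. Of these 6, 3 were called against tRNA-Phe-2-1-/- mice and 0 against tRNA-Phe-3-1-/- mice, beside the same backgrounds. For Dbp the difference from tRNA-Phe-3-1-/- mice was -1.04 (adjusted p = 0.61) and for Per1 -3.58 (adjusted p = 0.002).

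For heat shock, ER, glucocorticoid and metal lists the medians of the other lines lay between -0.26 and 0.15 in the liver. Heat shock medians were 0.80 in tRNA-Phe-1-1-/-, -0.001 in tRNA-Phe-2-1-/- and -0.05 in tRNA-Phe-3-1-/- liver, and in the brain 0.46, -0.02 and -0.08 in the same order. ER folding medians were 0.61 in tRNA-Phe-1-1-/-, 0.10 in tRNA-Phe-2-1-/- and -0.15 in tRNA-Phe-3-1-/- liver, and 0.36, -0.11 and -0.09 in the brain. Glucocorticoid response medians were 1.09 in tRNA-Phe-1-1-/-, 0.06 in tRNA-Phe-2-1-/- and 0.15 in tRNA-Phe-3-1-/- liver, and 0.92, 0.05 and -0.09 in the brain. The metal list stood at 1.63 in tRNA-Phe-1-1-/-, -0.26 in tRNA-Phe-2-1-/- and -0.26 in tRNA-Phe-3-1-/- liver. For single genes, with tRNA-Phe-1-1-/- mice set against tRNA-Phe-2-1-/- or against tRNA-Phe-3-1-/- mice, the tissue difference of Hsp90aa1 was -0.98 (adjusted p = 0.0042) or -1.31 (adjusted p = 0.00049), and that of Mt2 -5.50 (adjusted p = 0.0011) or -6.07 (adjusted p = 0.00054). Of the ER genes with a called tissue difference, Creld2 differed by -0.58 (adjusted p = 0.46) or -1.91 (adjusted p = 0.0084), Dnajb11 by -0.16 (adjusted p = 0.62) or -0.58 (adjusted p = 0.031) and Dnajc3 by -0.02 (adjusted p = 0.97) or -0.33 (adjusted p = 0.22). The 22 genes of the ER folding list had 0 calls against tRNA-Phe-2-1-/- (background 5.86%) and 4 against tRNA-Phe-3-1-/- mice (background 7.29%). Gclc differed by 1.80 (adjusted p = 9.5e-05) or 1.84 (adjusted p = 0.00012), Tyw5 by 1.23 (adjusted p = 0.0036) or 1.33 (adjusted p = 0.002), and Cep85l by -1.18 (adjusted p = 4.6e-05) or -0.91 (adjusted p = 0.00074). For Chrna4 the values were 0.35 (adjusted p = 0.86) and 1.17 (adjusted p = 0.43), and for Sars1 -0.10 (adjusted p = 0.59) and -0.14 (adjusted p = 0.4).

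**Figure D5:**
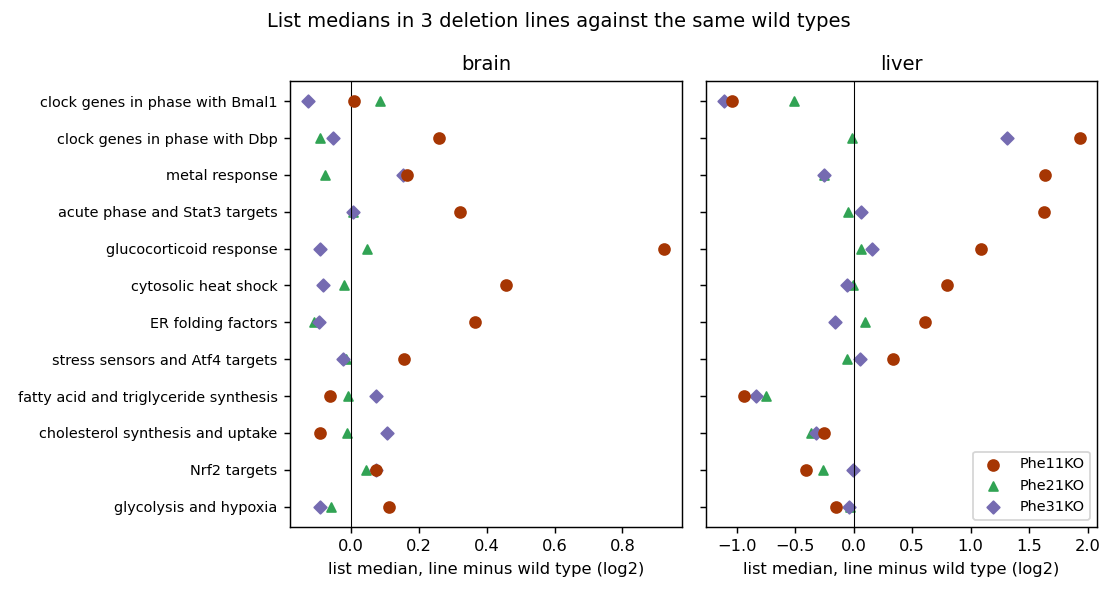
Median log2 difference from WT of 12 gene lists in the brain (left) and liver (right) of tRNA-Phe-1-1-/- (Phe11KO), tRNA-Phe-2-1-/- (Phe21KO) and tRNA-Phe-3-1-/- (Phe31KO) mice, with a wider x axis in the liver. In the liver the lipid synthesis medians lie together in the 3 lines, and the metal, acute phase, glucocorticoid, heat shock and ER medians lie apart for tRNA-Phe-1-1-/- mice.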

How the data were processed

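Total RNA of brain and liver was sequenced on an Illumina NovaSeq after TruSeq library preparation. The authors trimmed reads with Trim Galore and cutadapt, aligned them with STAR to GRCm38.p6, estimated transcript abundance with Salmon and normalised gene counts with DESeq2, tissue by tissue. They deposited 1 table per tissue of these normalised counts, used here as signal values: gene counts divided by 1 size factor of each library. Multiplied by the recovered size factor, 100% of the values of each library were whole within 0.01, which gave the depths.

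Values were transformed as log2(value + 1), and genes with a mean of at least 10 in both tissues were kept (14462 of 55469). limma 3.58.1 (R 4.3.3) was fitted with 4 groups, a variance trend and moderated statistics on the 12 samples, and the contrast was the brain effect minus the liver effect. P-values were adjusted by Benjamini-Hochberg over all genes tested, at a threshold of 0.05. The scripts were tested on simulated data. The other lines were fitted in a model of all 24 samples. Alternatives included edgeR 4.0.16 and DESeq2 1.42.0 on recovered reads. Genes, lists and comparisons were chosen with earlier results of these data known. Some named genes were picked among protein-coding genes with a mean of at least 50 in both tissues. These were the 5 largest and 5 smallest called differences among genes called in the liver alone, and 3 and 3 among those called in the brain alone. Up to 5 called in opposite directions and up to 5 called in the same direction with the lowest p were added. Without this minimum, the 2 tested genes of each list with the lowest p and any tested clock or ER folding gene were also named. Lpin1 was named after its values were seen. Promoters and the guide target came from RefSeq windows and the study's guide. Brain and liver samples with the same letter had residual correlations between -0.04 and 0.10, so letters were not used as pairs. Replicate libraries differed by more than sampling noise. The result of 1 gene is not reported here.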

Additional observations from a re-analysis of the deposited data

Results flagged for a closer look

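The effect of the deletion differed between brain and liver, by a test of the difference itself, for 882 genes. Of the genes named by rule, 63 were among them. The values below are the brain effect minus the liver effect on the log2 scale.

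With the higher brain effect were Npas2 5.37, Sytl5 4.99, Tafa2 4.00, Chrna4 3.88, Ppp1r3c 3.50, Bmal1 3.21, Pdk4 2.64, Acly 1.94, Gclc 1.89 and Elovl5 1.69. Next came Syt1 1.66, Cth 1.60, Rapgef3 1.54, Pmvk 1.53, Acot2 1.47, Ccng2 1.46, Nostrin 1.45, Gm49909 1.42, Sgk1 1.39 and Sc5d 1.32. They were followed by Cry1 1.22, Nfil3 1.13, Tyw5 1.12, Stk40 1.10, Ociad2 1.08, Aldoc 0.89, Tars1 0.88, Sesn3 0.60, Vegfa 0.51 and Gclm 0.46.

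With the lower brain effect were Moxd1 -8.62, Ttr -7.02, Mt2 -4.78, Usp2 -4.70, Dbp -4.67, Ciart -4.62, Mt1 -4.47, Fam107a -4.12, Per1 -3.52 and Steap4 -3.30. Next came Gadd45g -2.51, Socs3 -2.49, Ccne1 -2.39, Per3 -2.28, Enpp6 -2.12, Prox1 -1.81, Tmem125 -1.71, Tef -1.68, Slc1a2 -1.56 and Slc39a14 -1.50. They were followed by Nr1d2 -1.44, Creld2 -1.39, Cebpb -1.33, Cep85l -1.16, Hsph1 -1.02, Gja1 -0.84, Hsp90aa1 -0.78, Pelo -0.73, P4ha1 -0.59 and Dnajb11 -0.53. They were followed by Sars1 -0.47, H2-D1 -0.46 and Dnajc3 -0.44.

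Of these 63 genes, 41 kept their call without any 1 library and 48 under all 14 other settings. The value of Moxd1, and that of Fam107a, depends on the pseudocount, since WT livers were near 0 reads. Moxd1, Fam107a and Ciart had WT liver means below the minimum of 10 and entered through the tRNA-Phe-1-1-/- samples. Npas2 and Tafa2 had tRNA-Phe-1-1-/- liver means below it and entered through the WT samples.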

How the results depend on the processing

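Where the main fit or an alternative called a named tissue difference, its direction was the same in both fits. Differences called in neither could change sign: that of Hspa5 was 0.09 and reached -0.06 with 1 library left out. Over the named genes and settings, 3027 values kept their side of the threshold, 199 lost the call and 41 gained it. The number of called tissue differences was within 1.5 times of 882 under the other settings except DESeq2 on recovered reads, which gave 1711, while edgeR on the same reads gave 893. DESeq2 also gave 677 calls in the brain, 218 in both tissues in the same direction and 43 in opposite directions. Without a variance trend these 3 counts were 89, 33 and 3, and with separate variances for the 2 tissues they were 566, 129 and 23, with 1986 calls in the liver. The count of opposite genes was 3 without a filter on low values and 10 with all 24 samples. The causes of these shifts were not tested.

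With the letter as a replicate block, 719 tissue differences were called, and 906 with genotype and letter together taken as the animal. With the letter block, the 159 calls in the brain were 106, with the higher ones moving from 80 to 53, and the count of tRNA-Phe-2-1-/- mice moved from 5 to 3. Leaving out 1 library at a time gave 458 to 1087 tissue differences, 25 to 211 calls in the brain, 1924 to 2887 in the liver, 6 to 60 in both in the same direction and 2 to 8 in opposite directions. Alternatives for the other lines were chosen after seeing the data. Without a variance trend, tRNA-Phe-2-1-/- mice had 3 and tRNA-Phe-3-1-/- mice 24 called differences. Leaving out 1 library gave 0 to 8 and 5 to 233 for these, and 493 to 1070 and 645 to 1225 for tRNA-Phe-1-1-/- against each of them.

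With 3 samples a group the counts rest on few libraries, and the liver replicates varied more than those of the brain.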
